A study of Mus musculus with 88 samples.

Results

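The 9 genes described here encode enzymes that build, modify or break down the galactolipids of myelin and the fatty acids they carry, namely Ugt8a, Gal3st1, Fa2h, Cers2, Elovl1, Elovl7, Aspa, Galc and Arsa. They were found as the rows whose Ensembl identifier maps to these symbols in the GRCm38 annotation, and all 9 were present in each of 3 tables, which list 18946 genes of the medial prefrontal cortex (mPFC), 48795 genes of the bed nucleus of the stria terminalis (BNST) and 19559 genes of the ventral hippocampus (vHPC). Bulk RNA-seq was done on 88 dissected samples from 81 male mice aged 8 weeks, of which 7 were sampled in both the mPFC and the vHPC. The mice were of the inbred strains C57BL/6NCrl (B6) and DBA/2NCrl (D2), which the sample labels spell C57BL/6Crl and DBA/2Crl. Mice were either undefeated controls (Con) or went through chronic social defeat stress (CSDS), in which a mouse meets a larger aggressor on consecutive days, and defeated mice were classed as resilient (Res) or susceptible (Sus) by social avoidance relative to controls of their own strain. Tissue was taken 6 to 8 days after the last defeat. The mPFC groups held 6 Con, 6 Res and 6 Sus B6 mice and 6 Con and 8 Sus D2 mice. The BNST groups held 5 Con, 5 Res and 5 Sus B6 mice and 5 Con, 3 Res and 5 Sus D2 mice. The vHPC groups held 6 Con, 8 Res and 3 Sus B6 mice and 6 Con and 5 Sus D2 mice. Resilient D2 mice of the mPFC and vHPC were not analysed here. The comparisons address whether strain and the response to defeat change expression of these enzymes, and in which region. No gene was altered by design in any group.

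Galactosylceramide and its sulfated form sulfatide are the characteristic glycolipids of the myelin sheath, which oligodendrocytes (OLGs) wrap around axons. Galactosylceramide is made from ceramide by the galactosyltransferase UGT8A, and GAL3ST1 adds the sulfate, while FA2H hydroxylates the fatty acid and CERS2 links very long fatty acids, extended by ELOVL enzymes such as ELOVL1 and ELOVL7, to the sphingoid base. ASPA releases acetate from N-acetylaspartate, a source of carbon for lipid synthesis, and in the lysosome ARSA removes the sulfate of sulfatide and GALC the galactose of galactosylceramide. In people, loss of ASPA underlies Canavan disease, loss of GALC Krabbe disease and loss of ARSA metachromatic leukodystrophy.

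On GRCm38, Ugt8a lies on the minus strand of chromosome 3 from 125865271 to 125938619 and Cers2 on the plus strand of the same chromosome from 95314791 to 95323599. Gal3st1 (chromosome 11, 3983636 to 3999326, plus strand) and Aspa (chromosome 11, 73304992 to 73329596, minus strand) share another chromosome. Fa2h spans 111345135 to 111393824 of chromosome 8 on the minus strand, Elovl1 spans 118428093 to 118432953 of chromosome 4 on the plus strand and Elovl7 spans 108214404 to 108285683 of chromosome 13 on the plus strand. Galc spans 98202294 to 98259459 of chromosome 12 and Arsa 89472476 to 89477425 of chromosome 15, both on the minus strand. Exons of 4 members overlap a gene of the opposite strand, by 690 of 3680 exon bases for Arsa (C230037L18Rik), 400 of 14879 for Galc (Gm47439), 219 of 3676 for Cers2 (6330562C20Rik and Setdb1) and 53 of 2726 for Elovl1 (Cdc20). The strand setting of the counting is not given in the sources used here, so the level of these 4 genes is uncertain to that extent.

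The 250 bases before the transcription start are shown for Ugt8a, the first committed step of galactolipid synthesis, for Elovl1 and Arsa, which differed most firmly between the strains in opposite directions, and for Aspa, whose promoter has another base composition. The sequences are RefSeq's for GRCm38.p6, written 5′ to 3′ along the gene's own strand, with matches to any of 6 motifs in capitals. The starts are RefSeq's, and for Aspa that start lies inside the gene as GENCODE places it above, whose 5′ end is at 73329596, so the Aspa window does not precede the GENCODE start. Ugt8a is at chr3:125938653-125938902 on the minus strand, Elovl1 at chr4:118427843-118428092 on the plus strand, Arsa at chr15:89477425-89477674 on the minus strand and Aspa at chr11:73324638-73324887 on the minus strand.
Ugt8a: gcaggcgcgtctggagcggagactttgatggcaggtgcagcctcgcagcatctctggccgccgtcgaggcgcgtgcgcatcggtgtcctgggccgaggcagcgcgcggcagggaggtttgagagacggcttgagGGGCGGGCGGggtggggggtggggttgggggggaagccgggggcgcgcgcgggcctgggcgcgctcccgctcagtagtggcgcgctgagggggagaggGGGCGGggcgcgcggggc
Elovl1: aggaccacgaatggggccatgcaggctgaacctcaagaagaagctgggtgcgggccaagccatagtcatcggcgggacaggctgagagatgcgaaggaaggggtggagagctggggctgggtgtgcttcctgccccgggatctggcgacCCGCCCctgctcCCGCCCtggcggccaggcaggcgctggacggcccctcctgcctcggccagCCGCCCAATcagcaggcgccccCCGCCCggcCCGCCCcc
Arsa: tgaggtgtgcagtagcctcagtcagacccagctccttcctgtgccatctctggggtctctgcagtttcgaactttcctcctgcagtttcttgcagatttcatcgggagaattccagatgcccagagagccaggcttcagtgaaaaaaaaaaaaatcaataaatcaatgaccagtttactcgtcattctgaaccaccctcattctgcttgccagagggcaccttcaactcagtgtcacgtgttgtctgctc
Aspa: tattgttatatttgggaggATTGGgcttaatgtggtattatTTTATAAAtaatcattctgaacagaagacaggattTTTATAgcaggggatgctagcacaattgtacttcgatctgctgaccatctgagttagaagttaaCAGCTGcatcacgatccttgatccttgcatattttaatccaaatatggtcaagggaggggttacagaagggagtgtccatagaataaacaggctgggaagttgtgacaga

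The motifs searched, on both strands, were GGGCGG (the GC box, found in 32.7% of all 32817 promoter windows of this length), CCAAT (33.8%), TATAAA (12.4%), ACAAAG (a SOX type motif, 16.5%), CAGCTG (an E-box, 13%) and CTGGCAC (a MYRF type motif, 1374 of the 32817 windows). The Ugt8a window held 3 matches to GGGCGG, of which the pair at -116 and -112 overlap, and its GC content was 76.8%. The Elovl1 window (GC 72%) held 5 matches to GGGCGG and 1 to CCAAT at -35, which overlaps the GGGCGG match at -39. The Aspa window was poorer in GC (38.8%) and held 3 matches to TATAAA, of which those at -209 and -207 overlap, with 1 to CCAAT and 1 to CAGCTG. No match was found in the Arsa window (GC 48.4%). Among the other members, GC content was 65.6% for Gal3st1, 74.8% for Cers2, 73.6% for Elovl7 and 54% for Galc. GGGCGG occurred 3 times for Elovl7, 2 times for Cers2 and 1 time for Galc, and CCAAT 1 time each for Gal3st1 and Cers2. A window was given for 8 of the 9 members, all but Fa2h. These matches describe the sequence and were not tested for binding or for a relation to expression.

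The BNST table holds whole read counts (11825757 to 25793910 per library), and those of the mPFC and vHPC hold log2 CPM (counts scaled to the library's size) that the authors had normalized and adjusted for batches, so that their counting error is unknown here. The 10 mature OLG markers chosen for this description, among them Mobp, Mog, Mag and Opalin, were measured in every region. In bulk tissue, fewer OLGs and less RNA per OLG cannot be told apart. The vHPC libraries stood apart in one respect. On a scale set by 90 genes that separated the strains in the BNST, with B6 controls at 0 and D2 controls at 1, defeated B6 mice of the vHPC lay between the strains, at 0.289 to 0.364 for Res and 0.436 to 0.499 for Sus, and D2 Sus mice lay beyond the D2 controls, at 1.16 to 1.27. In the mPFC and BNST the same scale placed each library near its own strain, between -0.048 and 0.089 for B6 and between 0.909 and 1.11 for D2. Library preparation set also moved with stress in the vHPC, where 0 of 9 sets of B6 libraries mixed controls with defeated mice, against 4 of 5 in the mPFC and 2 of 2 in the BNST. Of the sets of D2 libraries, 1 of 6 did so in the vHPC, against 4 of 5 in the mPFC and 2 of 2 in the BNST. As every defeated vHPC library is affected, no result of stress in the vHPC can be given without them. The part of either factor in these differences was not separated from stress, and the count of members called with each as a covariate is given beside each comparison of stress in the vHPC. Reads of both strains were aligned to a reference of B6 origin, and its part in the strain differences was not tested.

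**Figure D1:**
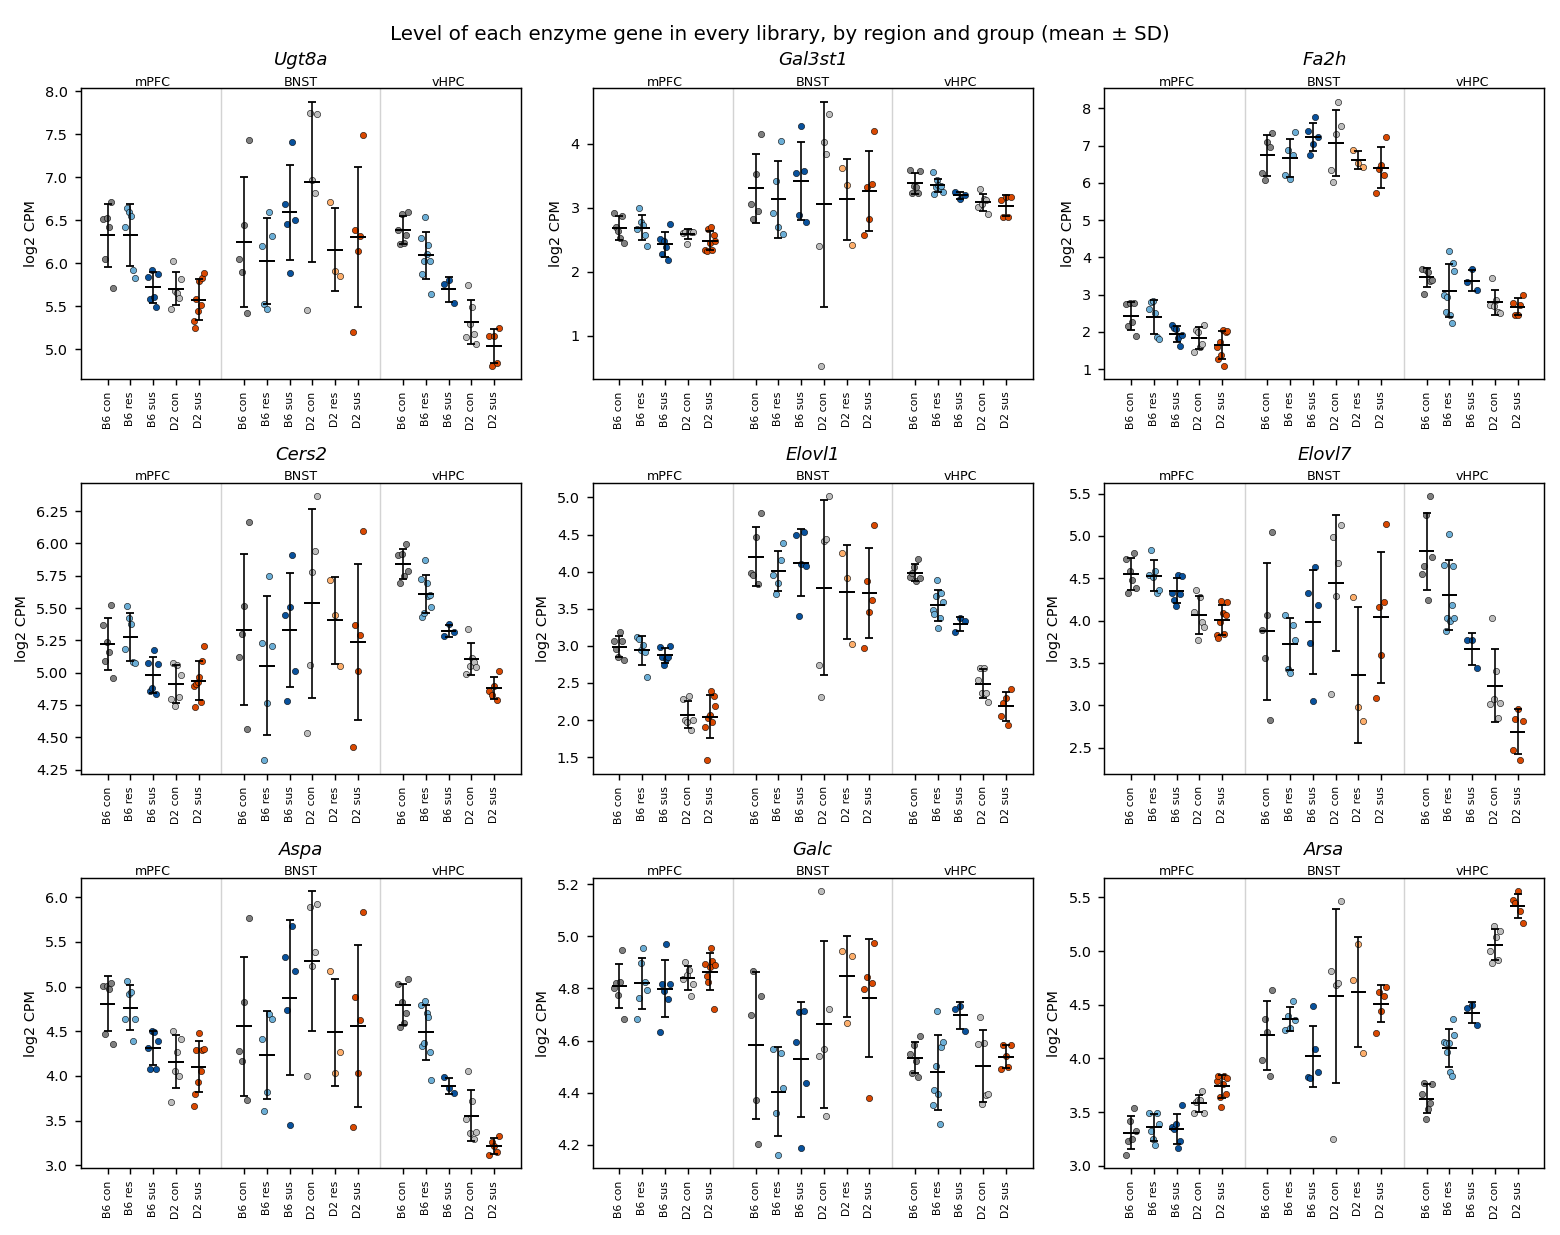
Level of each of the 9 genes in every library (points) as log2 CPM, with the mean and SD of each group of strain and phenotype in black, for the mPFC, BNST and vHPC. The vHPC panels show Elovl1 lower and Arsa higher from B6 controls through defeated B6 mice to D2 mice (Elovl1 means from 3.99 to 2.19, Arsa means from 3.62 to 5.42), while BNST points spread widely within a group (Ugt8a of D2 Con mice from 5.46 to 7.74).

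Levels were compared between genes as log2 CPM per kb of exon, and values of the 3 regions are set side by side without a test, since the tables differ in library kit, rRNA depletion and normalization. Ugt8a was the highest of the 9 in B6 controls of the mPFC, at 4.14 ± 0.37 (SD, n = 6), and of the vHPC, at 4.21 ± 0.16 (n = 6). Cers2 followed in both regions, at 3.35 ± 0.20 and 3.96 ± 0.12, and its range overlapped that of Ugt8a. Elovl7 took the next place in both, at 2.55 ± 0.19 and 2.81 ± 0.46, with a range below that of Cers2. Galc was low per kb in every region, with a mPFC value of 0.91 ± 0.09, a BNST value of 0.69 ± 0.28 and a vHPC value of 0.64 ± 0.06. Its exon length of 14879 bases, the longest of the 9, enters these values. In log2 CPM alone, its mean in mPFC B6 controls was 4.81, equal to that of Aspa.

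Fa2h took a different place in each region. Per kb it was the highest member in BNST B6 controls, at 5.16 ± 0.55 (n = 5), ahead of Ugt8a at 4.07 ± 0.75, although their ranges overlapped. It was the lowest in the mPFC, at 0.84 ± 0.38, where its range overlapped that of Galc, and the seventh in the vHPC, at 1.87 ± 0.25. D2 controls gave the same first and last places to Fa2h, at 5.49 ± 0.88 in the BNST and 0.24 ± 0.29 in the mPFC. The library kit and the rRNA depletion differed between these tables, and their part in the place of Fa2h was not tested. In vHPC D2 controls the order at the top was Cers2 (3.22 ± 0.12), Arsa (3.18 ± 0.14) and Ugt8a (3.14 ± 0.26), which overlapped each other, whereas Arsa was the eighth in vHPC B6 controls, at 1.74 ± 0.14.

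**Figure D2:**
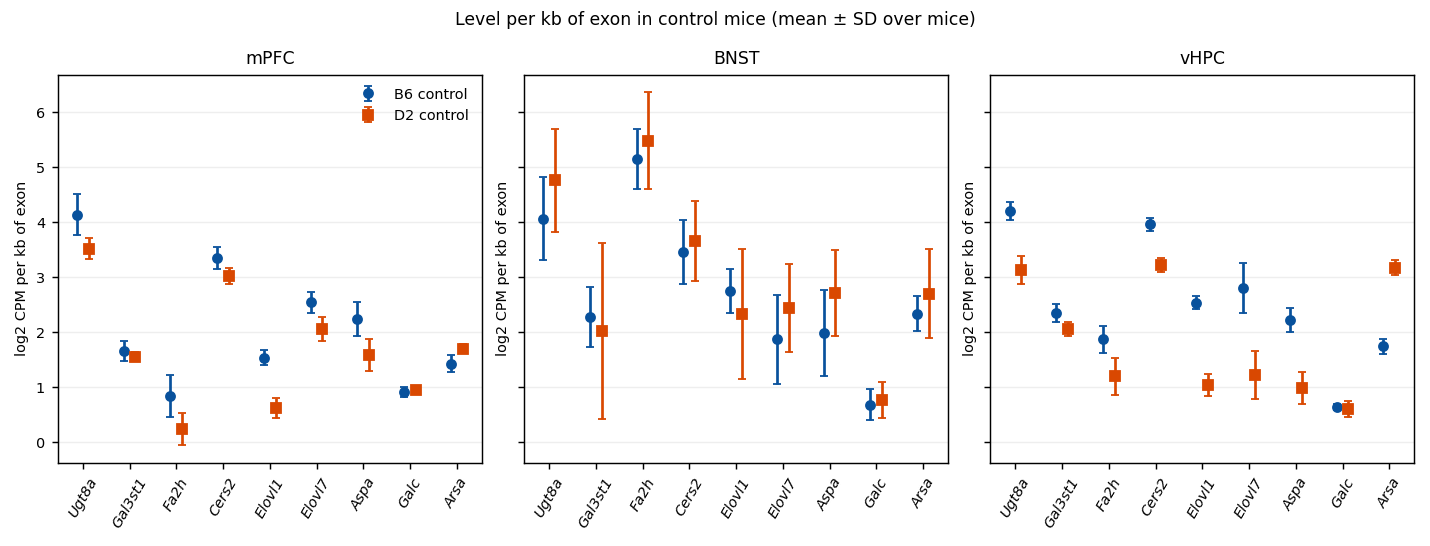
Mean level per kb of exon (log2 CPM per kb, error bars SD over mice) of the 9 genes in B6 and D2 controls, 1 panel per region. Fa2h is the highest gene of the BNST panel (5.16 in B6) and the lowest of the mPFC panel (0.84 in B6), and Arsa of the vHPC panel lies at 3.18 in D2 against 1.74 in B6.

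Before any stress, D2 mice had lower levels of most of these enzymes than B6 mice in the mPFC. Of the 9 members, 6 were lower and 1 was higher in D2 controls (limma, Benjamini-Hochberg adjusted p under 0.05 over all genes). The same rule called 27.8% of all genes of the table, 14.4% lower and 13.4% higher. The median difference of the members was -0.48 on the log2 scale, against 0.00 over all genes.

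Elovl1, which extends saturated very long fatty acids, separated the strains most clearly. Its level in log2 CPM was 2.81 to 3.19 in mPFC B6 controls (median 3.01, n = 6) and 1.86 to 2.32 in D2 controls (median 2.00, n = 6). The groups did not overlap, and the difference was -0.91 ± 0.11 (SE, adjusted p = 2.93e-07), a 1.88-fold lower level in D2. Ugt8a ranged from 5.71 to 6.71 in B6 controls (median 6.47) and from 5.47 to 6.02 in D2 controls (median 5.67). B6 control replicate 6, at 5.71, lay inside the D2 range, and the difference was -0.62 ± 0.16 (adjusted p = 0.00346). Aspa ranged from 4.36 to 5.04 in B6 (median 4.99) and from 3.71 to 4.50 in D2 (median 4.16). These ranges overlapped as well, with a difference of -0.65 ± 0.15 (adjusted p = 0.00173).

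The further members lower in D2 were Elovl7 (-0.48 ± 0.10, adjusted p = 0.000745), Cers2 (-0.31 ± 0.09, adjusted p = 0.013) and Fa2h (-0.60 ± 0.20, adjusted p = 0.0221). Arsa, the sulfatide sulfatase, was the only member higher in D2, with 3.1 to 3.54 in B6 (median 3.29) against 3.49 to 3.69 in D2 (median 3.61), a difference of 0.27 ± 0.07 (adjusted p = 0.00401) between narrowly overlapping groups. Gal3st1 (-0.10, 95% interval -0.29 to 0.10) and Galc (0.03, -0.07 to 0.13) did not pass. Fa2h lost its call when B6 control replicate 1, 3 or 5 or D2 control replicate 1 was left out, at -0.54 to -0.53, and the other 6 calls held with each library left out. All 10 mature OLG markers were lower in D2 controls (median -0.88), and their summed level was 10.78 to 11.72 in B6 and 10.18 to 10.73 in D2 (log2 of the summed CPM). Other markers passed as well. Among OLG precursor markers, Sox10 (-1.16) and Gpr17 (-0.45) were lower. Among markers of other cell types, Aqp4 (-0.32), Tmem119 (-0.35) and Flt1 (-0.24) were lower and Cux2 (0.36) was higher. Their part in the enzyme differences was not tested.

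In the vHPC the 7 members called in the mPFC were called in the same direction. Of the 9 members, 7 were lower and 1 was higher in D2 controls (limma), where 59.3% of all genes were called, 29.1% lower and 30.2% higher. The members' median difference was -0.74, against 0.01 over all genes. Elovl1 ranged from 3.87 to 4.172 in B6 controls (median 3.96) and from 2.242 to 2.71 in D2 controls (median 2.45). The groups lay more than 1 log2 unit apart at their nearest points, and the difference was -1.50 ± 0.10 (adjusted p = 1.76e-12), a 2.83-fold lower level. Arsa ranged from 3.43 to 3.77 in B6 (median 3.62) and from 4.89 to 5.23 in D2 (median 5.06). It did not overlap either and was 2.7-fold higher in D2, by 1.43 ± 0.08 (adjusted p = 7.97e-14).

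Elovl7 ranged from 4.25 to 5.47 in vHPC B6 controls (median 4.699) and from 2.85 to 4.03 in D2 controls (median 3.05), with a difference of -1.59 ± 0.22 (adjusted p = 7.97e-07). Aspa differed by -1.24 ± 0.14 (adjusted p = 2.19e-08), Ugt8a by -1.07 ± 0.13 (adjusted p = 8.18e-08) and Cers2 by -0.74 ± 0.07 (adjusted p = 1.13e-09). In each of these 6 genes the 12 control mice fell into ranges that did not overlap between strains, and the share of all genes that did so was not counted. Fa2h (-0.67 ± 0.25, adjusted p = 0.0249) and Gal3st1 (-0.29 ± 0.08, adjusted p = 0.00186) were lower in D2 with overlapping ranges. Fa2h lost its call without D2 control replicate 5 or 6 (-0.62 and -0.61). Galc, at -0.03 (95% interval -0.16 to 0.10), did not pass in the vHPC either. With library preparation set as a covariate, 3 members were called. All 10 mature OLG markers were again lower in D2 (median -1.32), with summed levels of 11.85 to 12.02 in B6 and 10.48 to 11.12 in D2 controls, and all 5 endothelial markers were lower as well, among them Pecam1 (-0.76) and Cldn5 (-0.56). Other markers also passed. Among OLG precursor markers, Sox10 (-0.69), Vcan (-0.29) and Pdgfra (-0.13) were lower and Gpr17 (0.37) was higher. Among markers of other cell types, Folr1 (-4.87), Gfap (-0.97), Csf1r (-0.29) and Spink8 (-0.54) were lower. Gja1 (0.47), Cux2 (0.69), Tbr1 (0.65) and Slc32a1 (0.49) were higher. Their part in the enzyme differences was not tested.

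In the BNST the strain difference in unstressed mice did not pass for any member. edgeR's quasi-likelihood test called 0 of 9 members and 2.51% of all 17515 genes tested, 0 members had an unadjusted p under 0.05, and DESeq2 also called 0 members. The values ran in the other direction from the mPFC and vHPC for several genes. Ugt8a was at 6.05, 5.90, 6.44, 5.42 and 7.43 in B6 controls and at 5.46, 7.74, 6.97, 6.82 and 7.73 in D2 controls. These ranges overlapped almost entirely, and the difference was 0.73 (95% interval -0.11 to 1.57). Aspa differed by 0.69 (-0.20 to 1.58), Elovl7 by 0.53 (-0.29 to 1.36) and Fa2h by 0.46 (-0.23 to 1.145), with adjusted p-values of 0.447 to 0.576 for these 4 genes. Elovl1, the member that separated the strains in the other regions, differed by -0.12 (-0.88 to 0.64).

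Arsa alone kept the positive sign of the mPFC and vHPC with an interval close to 0 at its lower end. It was at 3.98, 4.37, 4.25, 3.84 and 4.64 in BNST B6 controls and at 4.81, 3.26, 4.68, 4.702 and 5.47 in D2 controls. Of the D2 mice, 4 of 5 lay above every B6 mouse and replicate 2 lay below them all. The difference was 0.50 (95% interval -0.01 to 1.006, adjusted p = 0.379), and it passed without D2 control replicate 2, at 0.71 (adjusted p = 0.0391). The opposite-strand neighbour C230037L18Rik differed between the control groups by -0.11 (mPFC), -0.15 (BNST) and 0.64 (vHPC). Its mean level in B6 controls was 1.7 log2 CPM in the mPFC, where Arsa was at 3.31, 2.47 in the BNST, where Arsa was at 4.21, and -0.55 in the vHPC, where Arsa was at 3.62. Its part in the Arsa differences was not tested.

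**Figure D3:**
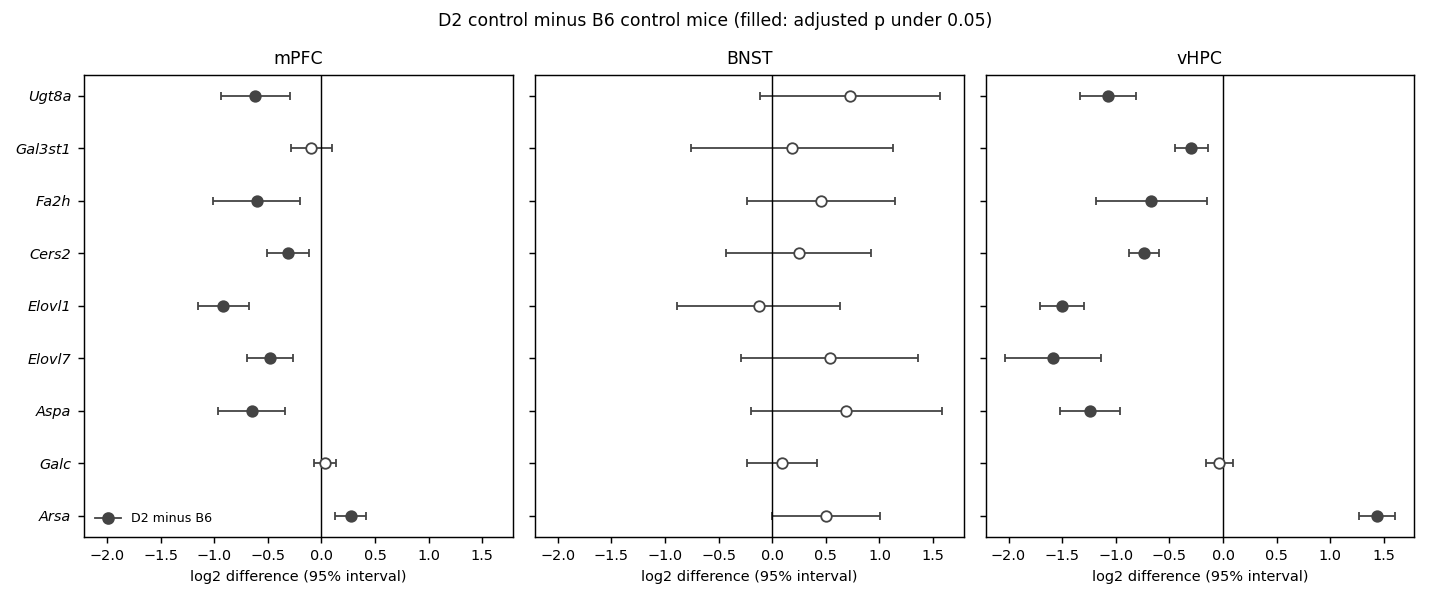
Difference of D2 controls from B6 controls on the log2 scale with 95% intervals, for the 9 genes in each region, where filled symbols mark adjusted p under 0.05. Elovl1 lies at -0.91 in the mPFC and -1.50 in the vHPC but at -0.12 in the BNST, and Arsa lies to the right of 0 in all 3 panels (0.27, 0.50 and 1.43).

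Ugt8a was the only member to pass in a test of stress in the mPFC. In B6 mice it was lower in Sus than in Con mice, 1 of 9 members called against 2.22% of all genes (1.28% lower). Its level was 5.71 to 6.71 in Con (median 6.47), 5.83 to 6.65 in Res (median 6.49) and 5.49 to 5.93 in Sus mice (median 5.73, n = 6 each). All 6 Sus mice lay below the means of both other groups, and Con replicate 6 (5.71) and Res replicates 5 and 6 (5.92 and 5.83) reached into the Sus range. The difference from Con was -0.60 ± 0.16 (adjusted p = 0.0404), a 1.52-fold lower level.

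The call was lost with library preparation set as a covariate (-0.59, adjusted p = 0.1), with the 2 groups fitted alone (adjusted p = 0.144) and without any one of Con replicates 1, 3, 4 or 5 or Sus replicates 2, 5 or 6 (-0.63 to -0.53). With the prefix of the mouse identity code as a covariate the difference was 0.01, and 5 of 6 Sus mice shared the prefix C7 with 1 of 6 Con mice, so prefix and stress can hardly be told apart. That Con mouse was replicate 6, and Res replicates 5 and 6 shared the prefix C5 with the remaining Sus mouse. These are the Con and Res mice named above as reaching into the Sus range of Ugt8a. Aspa, at 4.36 to 5.04 in Con (median 4.99) and 4.08 to 4.50 in Sus mice (median 4.35), differed by -0.50 ± 0.15 (adjusted p = 0.0733), and passed without Con replicate 2 or 6 (-0.57 and -0.59). Fa2h differed by -0.48 ± 0.20 (adjusted p = 0.189). Gal3st1 and Cers2 also had an unadjusted p under 0.05 (0.0116 and 0.0164). Galc and Arsa differed by -0.01 (95% interval -0.11 to 0.09) and 0.04 (-0.11 to 0.18).

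Against Res mice, Ugt8a of Sus B6 mice differed by -0.61 ± 0.16 (adjusted p = 0.0426) and was again the only member called, where 2.02% of all genes were called and 1.177% were lower. That call was lost without Res replicate 1, 2, 3 or 4 or Sus replicate 2, 4, 5 or 6 (-0.64 to -0.54). It was also lost with library preparation set as a covariate (-0.57, adjusted p = 0.114), with identity prefix as a covariate (-0.06) and with only these groups in the fit (adjusted p = 0.104), and no Res mouse had the prefix C7. Both Ugt8a comparisons share the Sus mice. Res and Con mice of B6 differed by -0.04 to 0.05 over the members, with 0 of 9 called by limma, 0 at an unadjusted p under 0.05 and 0% of all genes called. Of the 10 mature OLG markers, 9 were lower in Sus than in Con mice (median -0.78) and 6 in Sus than in Res mice (median -0.73), and their summed level was 10.78 to 11.72 in Con, 10.86 to 11.62 in Res and 10.30 to 10.94 in Sus mice. Their part in the Ugt8a difference was not tested.

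In D2 mice of the mPFC, limma called 0 of 9 members between Sus and Con and 0% of all genes, with 1 member (Arsa) at an unadjusted p under 0.05. Ugt8a was at 5.25 to 5.89 in D2 Sus (median 5.54, n = 8) and at 5.47 to 6.02 in D2 Con mice (median 5.67). The D2 groups overlapped each other and the range of B6 Sus mice, and the D2 difference was -0.13 (95% interval -0.43 to 0.17). Arsa was at 3.49 to 3.69 in Con (median 3.61) and 3.55 to 3.84 in Sus mice (median 3.78), a difference of 0.16 (0.02 to 0.29, adjusted p = 0.985). The strain by stress interaction, the D2 difference minus the B6 difference, was called for 0 of 9 members and 0% of all genes, with 3 members at an unadjusted p under 0.05, and was 0.48 ± 0.21 for Ugt8a and 0.44 ± 0.21 for Aspa (adjusted p = 0.51 and 0.522).

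The vHPC of B6 Sus mice differed from Con in 6 of 9 members, 5 lower and 1 higher, in a comparison that called 40.6% of all genes (20.1% lower and 20.5% higher). Elovl7 was at 3.78, 3.77 and 3.44 in the 3 Sus mice and at 4.25 to 5.47 in Con mice (median 4.699). Every Sus value lay below every Con value, and the difference was -1.15 ± 0.27 (adjusted p = 0.00148). Aspa was at 3.99, 3.87 and 3.81 in Sus and at 4.55 to 5.09 in Con mice (median 4.77), a difference of -0.91 ± 0.17 (adjusted p = 0.00018). Elovl1 was at 3.19, 3.37 and 3.33 in Sus and at 3.87 to 4.172 in Con mice, a difference of -0.69 ± 0.12 (adjusted p = 0.000128). Neither gene overlapped between the groups.

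Ugt8a of the vHPC was at 5.76, 5.799 and 5.53 in B6 Sus and at 6.22 to 6.60 in Con mice (median 6.35), and differed by -0.69 ± 0.16 (adjusted p = 0.00123). Cers2, the ceramide synthase for very long acyl chains, differed by -0.52 ± 0.08 (adjusted p = 4.97e-05). Arsa was at 4.47, 4.50 and 4.31 in Sus and at 3.43 to 3.77 in Con mice, 1.75-fold higher by 0.80 ± 0.10 (adjusted p = 1.45e-06). Galc was also without overlap (4.72, 4.73 and 4.64 against 4.46 to 4.62), at 0.16 with an adjusted p of 0.0965. The share of all genes without overlap between these groups was not counted. Gal3st1 (-0.18, 95% interval -0.38 to 0.01) and Fa2h (-0.09, -0.72 to 0.55) did not pass.

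Whether these calls held depended on which factor entered the fit. With sequencing set as a covariate and in sequencing set 1 alone, 6 members were called. That set held all 6 Con and 3 of 11 defeated B6 mice, Res and Sus together. With library preparation set as a covariate, 0 members were called, with Elovl1 at -1.11, Ugt8a at -0.87 and Arsa at 0.91 (adjusted p = 0.164, 0.442 and 0.176). With strain position as a covariate, 0 members were called as well, and Elovl1 changed sign, to 0.44 (adjusted p = 0.637), while Ugt8a stood at -0.19 and Arsa at 0.26. Position did not overlap between Con (-0.024 to 0.031) and Sus mice (0.436 to 0.499), so this limma fit could not separate it from stress. The median SE over all genes was 0.381 in this fit, against 0.098 without the covariate. All 10 mature OLG markers were lower in Sus mice (median -0.85, summed level 11.05 to 11.25 against 11.85 to 12.02 in Con). Choroid plexus markers ranged widely within groups, from 5.35 to 11.04 in Con (median 8.33) and from 4.72 to 6.36 in Sus mice (median 5.54, log2 of the summed CPM). Of these markers, Folr1 passed and was lower in Sus mice (-4.39, limma adjusted p = 0.00221). Of the other marker lists, 4 of 5 endothelial markers (Pecam1 -0.51), 4 of 6 microglia markers, 2 of 6 astrocyte markers (Gfap -0.67), 1 of 6 OLG precursor markers, 1 of 5 hippocampal markers and 1 of 5 neuron markers were lower, while 3 neuron markers (Rbfox3 0.48), 1 astrocyte marker, all 4 cortical excitatory markers (Tbr1 0.91) and 2 of 4 forebrain GABA markers were higher. The part of these marker lists was not tested.

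**Figure D4:**
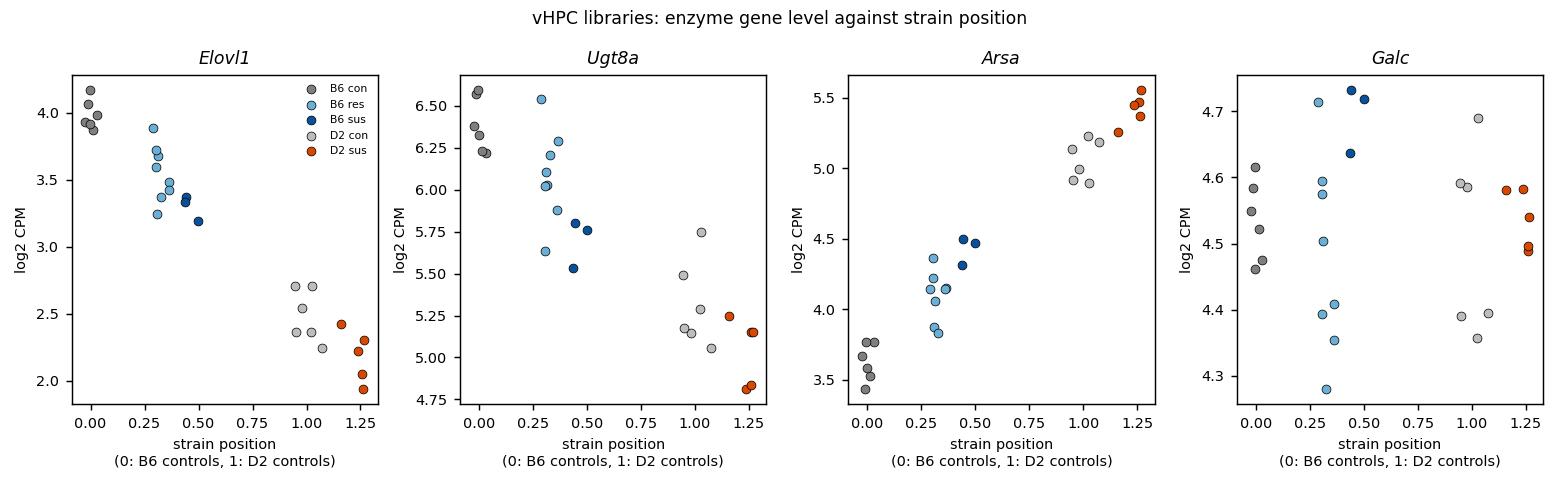
Level (log2 CPM) of enzyme genes in each vHPC library against strain position, a scale on which B6 controls average 0 and D2 controls 1, coloured by group. B6 Res mice lie at 0.289 to 0.364 and B6 Sus mice at 0.436 to 0.499 on the horizontal axis, and their Elovl1 and Arsa levels lie between those of the B6 and D2 controls.

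B6 Res mice of the vHPC lay between Con and Sus mice in most members. Of the 9, 2 were lower and 1 was higher than in Con, where 10.84% of all genes were called (5.9% lower and 4.94% higher). Elovl1 was at 3.24 to 3.89 in Res mice (median 3.54, n = 8) and at 3.87 to 4.172 in Con mice (median 3.96), a difference of -0.44 ± 0.09 (adjusted p = 0.00228) between groups that overlapped by 1 mouse of each. Arsa was at 3.83 to 4.37 in Res mice (median 4.146), above all Con mice, by 0.47 ± 0.08 (adjusted p = 0.000108). Cers2 differed by -0.23 ± 0.06 (adjusted p = 0.0195), and that call was lost without Con replicate 3 or 5 (-0.22 and -0.20). Elovl7 (-0.51), Fa2h (-0.36), Aspa (-0.31) and Ugt8a (-0.30) did not pass, and Elovl7 passed without Res replicate 4 (-0.61). With each library left out in turn, 2 to 5 members were called. The count was 0 with library preparation set or strain position as a covariate, and 1 with sequencing set as a covariate. Sequencing set 1 alone held 3 of 11 defeated B6 mice, Res and Sus together, too few Res mice for a count. Of the mature OLG markers, 6 of 10 were lower in Res mice (Mal -0.53, Mobp -0.46), with a summed level of 11.39 to 11.98 against 11.85 to 12.02 in Con, and 1 of 6 astrocyte markers (Gfap -0.27) and 1 of 6 OLG precursor markers were lower. Their part was not tested.

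Between Sus and Res B6 mice of the vHPC, 4 members were called, 2 lower and 2 higher in Sus, against 27.6% of all genes (13.6% lower and 14.1% higher). Aspa was at 3.96 to 4.83 in Res (median 4.52) and differed by -0.60 ± 0.16 (adjusted p = 0.0108), with 1 Res mouse inside the Sus range. Cers2 differed by -0.29 ± 0.08 (adjusted p = 0.0143), Arsa by 0.33 ± 0.10 (adjusted p = 0.0167) and Galc by 0.22 ± 0.07 (adjusted p = 0.0322). Leaving out single libraries gave 1 to 6 calls. The lowest count came without Sus replicate 1, where Cers2 (-0.27), Galc (0.21) and Arsa (0.31) lost their calls, and the highest without Res replicate 8, where Ugt8a (-0.46) and Elovl7 (-0.68) gained one. With only these groups in the fit or with library preparation set as a covariate, 0 members were called, and with strain position as a covariate 1 was (Galc). Of the mature OLG markers, 8 of 10 were lower in Sus mice (median -0.46), and all 4 cortical excitatory markers were higher. Markers of most other lists passed too, among them Cldn5 (-0.54), Gfap (-0.40), C1qa (-0.50), Nefl (-0.35), Spink8 (-0.59) and Folr1 (-2.98), which were lower. Among those that were higher were Rbfox3 (0.40), Gja1 (0.42) and Slc32a1 (0.53). The part of all these markers was not tested.

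In D2 mice of the vHPC, 1 of 9 members passed between Sus and Con, Arsa, where 4.28% of all genes were called and 1.54% were higher. Arsa was at 5.47, 5.45, 5.56, 5.37 and 5.26 in Sus and at 4.89 to 5.23 in Con mice (median 5.06). The groups did not overlap, and the difference was 0.36 ± 0.09 (adjusted p = 0.013). Elovl7 was at 2.47, 2.84, 2.96, 2.35 and 2.82 in Sus and at 2.85 to 4.03 in Con mice, a difference of -0.54 (95% interval -1.01 to -0.08) that did not pass (adjusted p = 0.203). Aspa differed by -0.34 (-0.64 to -0.05, adjusted p = 0.206). The Arsa call was lost with library preparation set, sequencing set or strain position as a covariate. Sequencing set 1 held 5 of 6 Con but 1 of 5 Sus mice, so sequencing set and stress can hardly be told apart here. Of the mature OLG markers, 3 of 10 were lower in D2 Sus mice (median -0.36), and their summed level was 10.25 to 10.63 against 10.48 to 11.12 in Con.

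The strain by stress interaction in the vHPC was called for 0 of 9 members by limma, with 4 at an unadjusted p under 0.05, beside 0.782% of all genes called. For Arsa it was -0.44 ± 0.13 (adjusted p = 0.113), that is, the B6 difference of 0.80 was larger than the D2 difference of 0.36 by an amount that did not pass, and it passed with quantile normalization (-0.51, adjusted p = 0.0486) and with only the 4 groups in the fit (adjusted p = 0.0358). With library preparation set or strain position as a covariate, 0 members were called and Arsa was at -0.83 and -0.18. It was 0.61 for Elovl7, 0.57 for Aspa, 0.41 for Ugt8a and 0.39 for Elovl1 (adjusted p = 0.195 to 0.335).

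**Figure D5:**
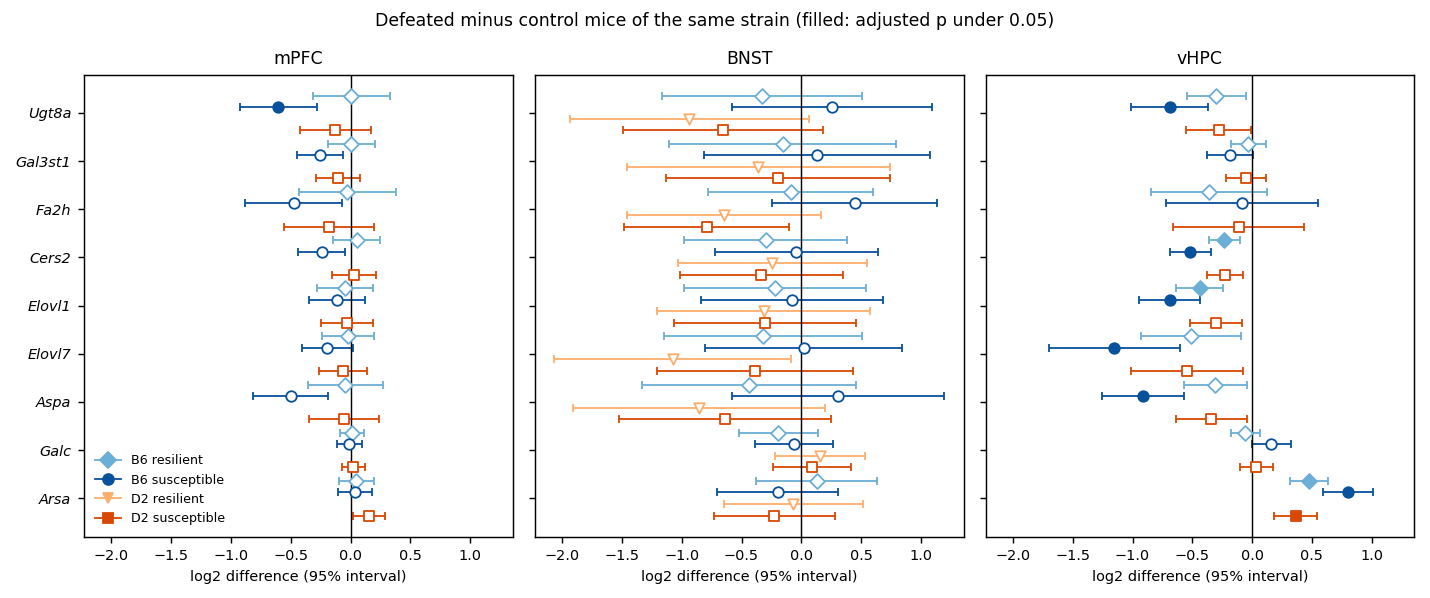
Differences of defeated from control mice of the same strain on the log2 scale with 95% intervals, for the 9 genes in each region, where filled symbols mark adjusted p under 0.05. In the mPFC only Ugt8a of B6 Sus mice is filled (-0.60), in the vHPC 6 genes of B6 Sus mice, 3 of B6 Res mice and Arsa of D2 Sus mice are filled, and in the BNST none is.

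In the BNST no member passed in any test of stress by edgeR or by DESeq2. For B6 Sus against Con, 0 of 9 were called and 0% of all genes, with 0 members at an unadjusted p under 0.05. Fa2h was at 6.27, 6.07, 7.10, 6.95 and 7.34 in B6 Con and at 7.39, 6.74, 7.04, 7.77 and 7.22 in B6 Sus mice. The groups overlapped, and the difference was 0.45 (95% interval -0.24 to 1.136). Aspa differed by 0.31 (-0.58 to 1.194). For B6 Res against Con, 0 members and 0% of genes were called, with 0 members at an unadjusted p under 0.05 and Aspa at -0.44 (-1.33 to 0.45). Between B6 Sus and Res mice, where 0.00571% of genes (1 gene) passed, 0 members did, with 0 at an unadjusted p under 0.05, and Aspa differed by 0.75 (-0.15 to 1.64), Ugt8a by 0.59 (-0.25 to 1.43) and Fa2h by 0.54 (-0.15 to 1.23).

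In D2 mice of the BNST no member passed after defeat either. Fa2h was at 6.34, 6.03, 7.31, 8.18 and 7.52 in D2 Con and at 5.73, 6.36, 6.48, 6.20 and 7.24 in D2 Sus mice. The ranges overlapped, and the difference was -0.79 (95% interval -1.48 to -0.10, adjusted p = 0.718), the 1 member with an unadjusted p under 0.05 (0.0265) where 0 members and 0% of genes were called. Ugt8a of D2 Sus mice was at 5.20, 6.388, 6.14, 6.32 and 7.48, and differed from Con by -0.66 (-1.49 to 0.18). In the 3 D2 Res mice Elovl7 was at 4.28, 2.98 and 2.81, against 3.13, 4.99, 4.29, 4.69 and 5.13 in Con. Its difference of -1.08 (-2.07 to -0.09) did not pass (adjusted p = 0.902) and was the only one at an unadjusted p under 0.05 of a comparison that called 0 members and 0% of genes. The D2 Res mice had the identity prefixes ED1 and ED2, which no D2 Con mouse of the BNST had, so prefix and resilience cannot be told apart here. Of the 6 sequencing sets of BNST D2 libraries, 1 held both controls and defeated mice.

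The strain by stress interaction of the BNST was called for 0 of 9 members and 0% of genes. It was -1.24 ± 0.48 for Fa2h (unadjusted p = 0.0148, adjusted p = 0.281), the 1 member at an unadjusted p under 0.05, with the B6 difference at 0.45 and the D2 difference at -0.79. Aspa followed at -0.94 (95% interval -2.20 to 0.31) and Ugt8a at -0.91 (-2.10 to 0.27). The mature OLG markers, of which 0 of 10 passed, had a median interaction of -1.39, a median difference of 0.63 in B6 Sus mice and of -0.80 in D2 Sus mice.

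Within the galactosylceramide step, the level of Ugt8a per kb exceeded that of Galc in every group of every region. The mean difference of the log2 levels was 3.23 ± 0.31 (SD) in mPFC B6 Con mice, 3.22 ± 0.36 in Res and 2.63 ± 0.24 in Sus mice, and 2.58 ± 0.17 in D2 Con and 2.43 ± 0.26 in D2 Sus mice. In the vHPC it was 3.57 ± 0.12, 3.33 ± 0.30 and 2.72 ± 0.09 in B6 Con, Res and Sus mice and 2.53 ± 0.19 and 2.21 ± 0.20 in D2 Con and Sus mice. In the BNST the group means ran from 3.02 to 3.996 with SDs up to 0.80. The exon lengths enter all these differences (14879 bases for Galc and 4536 for Ugt8a). In log2 CPM alone, the means in mPFC B6 Con mice were 6.32 for Ugt8a and 4.81 for Galc.

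For the sulfate step, the RNA levels per kb of the adding and the removing enzyme lay closer together. Gal3st1, which adds the sulfate, minus Arsa, which removes it, was 0.61 ± 0.18 per kb in vHPC B6 Con mice and -1.12 ± 0.25 in D2 Con mice, and the B6 Res and Sus means (0.10 and -0.38) fell between them. Every vHPC B6 Con mouse lay above 0 (0.31 to 0.77) and every D2 mouse below 0. In the mPFC the same difference was 0.22 ± 0.24 in B6 Con, 0.18 ± 0.28 in B6 Res and -0.07 ± 0.12 in B6 Sus mice. It was -0.14 ± 0.12 in D2 Con and -0.40 ± 0.22 in D2 Sus mice. In the BNST the group means ran from -0.68 to 0.25 with SDs up to 0.95. Between the vHPC control groups, Gal3st1 itself differed by -0.29 and Arsa by 1.43.

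Genes of neighbouring steps were counted in 5 lists. Over all genes, the comparison of D2 with B6 controls called 14.4% lower and 13.4% higher in the mPFC. In the vHPC it called 29.1% lower and 30.2% higher. Whether a list departed from these shares was not tested. Of the ceramide backbone list (serine palmitoyltransferase, ceramide synthases and their regulators), 15 of 16 were measured in the mPFC and 14 in the vHPC. In D2 against B6 controls, 4 were lower and 1 higher in the mPFC and 5 were lower and 1 higher in the vHPC, among them Sptlc1, a subunit of the first enzyme of the pathway (-0.27 and -0.26). Of 17 measured genes of fatty acid supply and elongation, 3 were lower and 2 higher in the mPFC, and 5 lower and 4 higher in the vHPC. Acaca, which makes malonyl-CoA, was lower in D2 (-0.26 in the mPFC and -0.67 in the vHPC), while the fatty acid synthase gene Fasn was higher (0.19 and 0.37). The median of the fatty acid list was -0.03 in the mPFC and 0.04 in the vHPC.

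Of 10 genes of lysosomal sphingolipid breakdown, 3 were lower and 1 higher in mPFC D2 controls, and 8 lower and 0 higher in vHPC D2 controls, the opposite direction to Arsa. They included the acid ceramidase gene Asah1 (-0.30 in the mPFC and -0.64 in the vHPC) and Sumf1, whose product activates sulfatases such as ARSA (-0.28 and -0.71). In the list of sulfate donor and N-acetylaspartate supply (8 genes), 1 was lower and 1 higher in the mPFC and 4 were lower and 2 higher in the vHPC. Papss1, which makes the sulfate donor, was lower in D2 in both regions (-0.30 and -0.45), and Nat8l, which makes N-acetylaspartate in neurons, was higher in both (0.26 and 0.33). Of the glucosylceramide and sphingomyelin branch (6 genes), 1 was higher in the mPFC (B4galt5, 0.22), and 2 were lower and 2 higher in the vHPC.

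In B6 Sus against Con mice of the mPFC, a comparison that called 2.22% of all genes, few neighbouring genes passed. These were Cers6, another ceramide synthase, which was higher (0.22), and the desaturase gene Scd1 (-0.31) and Papss1 (-0.20), which were lower. No gene of the lysosomal list (median -0.08) or of the glucosylceramide and sphingomyelin branch passed (limma). The vHPC comparison called 20.1% of all genes lower and 20.5% higher, and the lists were not tested against these shares. In the vHPC, 8 of 10 lysosomal genes were lower, among them Sumf1 (-0.59) and Asah1 (-0.44), and 5 ceramide backbone genes were lower and 1 higher. There, 4 fatty acid genes were lower and 3 higher, 3 sulfate and N-acetylaspartate genes were lower and 2 higher, and 1 gene of the glucosylceramide and sphingomyelin branch was lower and 2 higher. None of these vHPC list genes was called with library preparation set or with strain position as a covariate. In the BNST, 0 genes of these 5 lists passed in any comparison by edgeR.

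Agreement between members from mouse to mouse was measured after group means were removed. The median Pearson r over the 36 pairs of members was 0.47 in 32 mPFC libraries, 0.55 in 28 BNST libraries and 0.39 in 28 vHPC libraries. These values describe libraries that share depth and tissue composition. Aspa and Elovl7 reached 0.96 in the BNST, and Ugt8a and Fa2h 0.86 in the mPFC. The median r of Galc with the other 8 members was 0.16 (mPFC), 0.04 (BNST) and 0.34 (vHPC), and that of Arsa was -0.10, 0.29 and 0.00. Single pairs were higher, with 0.80 for Galc and Fa2h in the vHPC and 0.83 for Arsa and Gal3st1 in the BNST. For the BNST pair Spearman's rho was 0.69, and D2 control replicate 2 was the lowest of its group in both genes. In the vHPC the median of Galc was above that of Gal3st1 (0.31). Ugt8a followed the mean of the mature OLG markers closely, with r of 0.95 (mPFC), 0.75 (BNST) and 0.95 (vHPC), whereas Arsa had r of 0.03, 0.42 and -0.17.

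The genes most like each member were sought among 15988 genes tested in all regions, by the mean over the 3 regions of this within-group r. For Ugt8a they included the myelin genes Ermn (0.91) and Mog (0.89), and for Aspa they included Serpinb1a (0.89) and Ermn (0.86). Those of Gal3st1 were 2810468N07Rik (0.78), Mag (0.74) and Plxnb3 (0.74), and those of Fa2h were Myrf (0.84), a transcription factor of myelination, Gab1 (0.83) and Pacs2 (0.82). Cers2 was most like Litaf (0.85), Hapln2 (0.84) and Lpar1 (0.84), Elovl1 most like Tmem63a (0.78), Cntn2 (0.74) and Rassf2 (0.74), and Elovl7 most like Slc12a2 (0.88), Fgfr2 (0.82) and Ppfibp2 (0.81). The values were lower for Galc, with Gm19409 (0.66), Plek (0.64) and Gm37018 (0.64), and for Arsa, with Atp13a2 (0.68), Abca3 (0.66) and Pcnx3 (0.64).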

How the data were processed

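Bulk RNA-seq was measured in 88 libraries of 3 brain regions, and groups were taken from the sample labels. The library preparation and sequencing sets came from the study's supplementary tables and the mouse identity codes from the titles. The authors trimmed and filtered the reads, removed duplicates, used STAR for alignment to GRCm38 and HTSeq for counts on exons. The BNST table deposited by the authors holds raw read counts. The mPFC and vHPC tables deposited by the authors hold log2 CPM, from which low genes had been removed, after voom normalization and a ComBat adjustment for the sets of library preparation and, for the vHPC, of sequencing. Depth is therefore known for the BNST alone, and the precision of a difference was taken from the spread between mice. No columns were duplicated.

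The 17515 BNST genes that reached 1 CPM in 6 or more libraries were fitted with edgeR's robust quasi-likelihood test and TMM factors. For the deposited log2 CPM, limma was used with its robust option. Each fit held all libraries of a region with 1 mean per group, tests were two-sided, and p-values were adjusted by Benjamini-Hochberg over all genes tested. BNST levels are TMM-scaled log2 CPM (prior count 0.5). Symbols, positions and exon lengths came from GENCODE M21 and promoters from RefSeq. R 4.3.3, limma 3.58.1, edgeR 4.0.16, DESeq2 1.42.0, sva 3.50.0, Python 3.11.15, NumPy 2.4.6 and pandas 2.3.3 were used, and the tests were tried on simulated data.

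Strain position is a library's place on the line from the B6 to the D2 control means, found by least squares, so genes with larger strain differences weigh more. It used genes with a BNST strain difference above 3 on the log2 scale (111 in the BNST, of which 90 were in the other tables). The genes named were the 9 members, the 3 genes most like each, and up to 4 genes per list and comparison with the smallest p among those past the threshold. One gene that this rule names is not reported here. The members and lists were chosen with earlier results of these data known. The alternatives were DESeq2 or its size factors, no TMM factors, no low count filter, voom with ComBat, quantile normalization, a mean log2 CPM of at least 1, no robust option, only the groups compared, library, sequencing set, identity prefix or strain position as a covariate, sequencing set 1 alone, each library left out, a prior count of 2 and Spearman's rho. Each library is 1 mouse, and the labels do not give litters or cages.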

Additional observations from a re-analysis of the deposited data

Results flagged for a closer look

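Of 126 sets of 4 to 10 mice (a member in a group), 4 held a mouse set apart from the rest by Dixon's test, which chance gives in about 1 of 20 sets. Gal3st1 was low in mPFC D2 control replicate 3, at 2.44 log2 CPM against a group median of 2.62. Elovl1 was low in mPFC B6 resilient replicate 6, at 2.58 against a median of 2.97. In the vHPC, D2 control replicate 2 stood above its group in Fa2h, at 3.43 against a median of 2.70, and in Cers2, at 5.34 against 5.07. The same mouse was also the highest of its group in Ugt8a (5.75), Elovl7 (4.03) and Aspa (4.05).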

How the results depend on the processing

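Of 626 values under alternatives that kept every library or changed the fit, 540 kept their direction and their side of the threshold, 52 lost a call, 5 gained one and 29 changed sign, for 81 values. Of 2328 values with 1 library left out, 2277 kept both, 35 lost a call, 11 gained one and 5 changed sign. The cause of each change below was not tested. In the mPFC, the counts of members called between B6 Sus and Con and between B6 Sus and Res mice were 0 with library preparation set, with identity prefix or with only the groups compared, where the number of all genes called between Sus and Con went from 420 to 39, 0 and 4. In the vHPC with library preparation set, the counts were 0 for the 3 B6 comparisons of stress and for D2 Sus against Con, and 3 for the strains, and the genes called between B6 Sus and Con went from 7949 to 202. With strain position they were 0 for B6 Sus and B6 Res against Con, for D2 Sus and for the strains, and 1 for Sus against Res. For the controls of the strains, position is by construction nearly the comparison itself. Defeated and control vHPC mice of a strain did not overlap in position, so these fits could not separate it from stress. With sequencing set they were 1 for B6 Res and 0 for D2 Sus against Con. Sequencing set 1 alone held 3 of 11 defeated B6 mice and 1 of 5 defeated D2 mice of the vHPC. Its counts for B6 Res, for B6 Sus against Res and for D2 Sus are therefore not given. With only the groups compared the count was 0 for Sus against Res. The vHPC interaction had 1 call with only the groups compared and 1 with quantile normalization (Arsa in each).

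Signs changed with identity prefix in the mPFC for Ugt8a (0.0066) and Fa2h (0.19) of B6 Sus against Con, Fa2h of Sus against Res (0.13) and Ugt8a of the interaction (-0.17), and in the BNST for Cers2 (0.053) and Elovl1 (0.51) of D2 Sus and Gal3st1 of the interaction (0.68). With voom and ComBat on the BNST counts they changed for Cers2 (0.0084) and Elovl1 (0.16) of D2 Sus, Gal3st1 of D2 Res (0.077) and Gal3st1 (0.46) and Elovl7 (0.018) of the interaction. With library sizes without TMM factors the median of all genes was -0.25 in B6 Sus, -0.17 in B6 Res, 0.27 in D2 Sus, 0.12 in D2 Res and 0.53 in the interaction (-0.042 to 0.038 over all BNST comparisons with TMM), where Gal3st1 (0.23) and Elovl7 (0.18) changed sign and lay below that median. In the vHPC with strain position, signs changed for Elovl1 of B6 Sus (0.44), for Fa2h (0.93), Cers2 (0.071) and Elovl1 (0.35) of B6 Res, for Ugt8a (0.019), Gal3st1 (0.50), Fa2h (3.33), Cers2 (0.20) and Elovl1 (0.96) of the strains and for Elovl1 of the interaction (-0.16). In sequencing set 1 alone they changed for Fa2h (0.72), Cers2 (0.027), Elovl7 (0.20) and Aspa (0.036) of B6 Res against Con and Galc of Sus against Res (-0.036). That set held only 3 of 11 defeated B6 mice, Res and Sus together, so these changes rest on very few libraries.

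With 1 library left out, the mPFC counts were 0 to 2 for B6 Sus against Con, 0 to 1 for Sus against Res, 6 to 7 for the strains and 0 to 0 for the other comparisons. The BNST counts were 0 to 1 for the strains and 0 to 0 otherwise. The vHPC counts were 6 to 6 for B6 Sus and 2 to 5 for B6 Res against Con, 1 to 6 for Sus against Res, 1 to 2 for D2 Sus (2 without B6 Res replicate 4), 7 to 8 for the strains and 0 to 0 for the interaction. In the BNST, leaving out B6 control replicate 5 turned B6 Res against Con for Ugt8a (-0.50 to 0.091 over all libraries left out) and Elovl7 (-0.51 to 0.090). Leaving out D2 control replicate 5 turned Elovl1 of D2 Sus (-0.61 to 0.044) and D2 Res (-0.59 to 0.033) and Gal3st1 of the interaction (-0.64 to 0.021). Between vHPC B6 Sus and Res mice, calls were lost without Sus replicate 1 or 3 for Cers2, without Sus replicate 2 for Aspa, without Sus replicate 1 or 2 for Arsa and without any Sus replicate or Res replicate 1, 2, 5 or 6 for Galc. There calls were gained for Ugt8a without Res replicate 2, 7 or 8 or D2 control replicate 2, and for Elovl7 without Con replicate 5, Res replicate 8 or D2 control replicate 2. No paired analysis was possible because no mouse was in more than 1 group of a comparison and the replicate numbers were given in accession order. Levels with a prior count of 2 and agreement by Spearman's rho moved by less than their spread. Depth limits Gal3st1 of the BNST most, at 17 reads in its lowest library.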

Other observations

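In BNST D2 control replicate 2 the members moved apart. It had the highest Ugt8a of its group (7.74 log2 CPM) and the highest Galc (5.17), but the lowest Gal3st1 (0.54, 17 reads), Arsa (3.26, 114 reads), Fa2h (6.03) and Elovl1 (2.31). The next lowest Gal3st1 of any BNST library was 2.41. Its total count (14838143) lay within the range of the other BNST libraries.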
